A study of Danio rerio with 33 samples.

Results

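The miRNA profile of the adult zebrafish (Danio rerio) ovary was set against the profiles of female brain, gut and liver. The comparison took the 3 ovary libraries and the 9 somatic libraries of females, 3 per tissue, and every known mature miRNA with a read count. Of the 247 mature miRNAs in the table, 238 had a count in at least 1 of the 32 libraries used (of 33 samples in the labels, heart replicate 3 was not analysed here) and 236 had one in the 12 libraries compared. All of the fishes were wild type of the strain named Singapore in the labels. They were adults bought from a local supplier, no treatment was given, and each replicate was a pool of several fishes. The 4 groups were thus Ovary, Female Brain, Female Gut and Female Liver. Whether tissues with the same replicate number came from the same pool of fishes is not stated. The p-values below measure the spread between pooled samples, estimated over the 32 libraries of all 11 groups.

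Small RNA was cut from a gel, ligated to adapters and sequenced. The authors counted the reads on mature miRNAs, and total counts per library set the precision of each value. As a group the ovary libraries had the fewest counts on known miRNAs, with 277699, 440492 and 858442. The authors report a smaller percentage of reads on known miRNAs in ovary than in these female tissues. These totals are thus not the number of reads sequenced, which was not lowest in ovary. Female liver had 634612 to 2589521 counts, female brain 1258317 to 6894023 and female gut 2662337 to 4670838. Levels below are normalised read counts, which are the counts multiplied by 1 scaling factor per library from TMM (Trimmed Mean of M-values) normalization. This scaling assumes that the bulk of the miRNAs keep their level. The TMM factors were 1.34 to 1.50 in ovary, 0.991 to 1.06 in female brain, 0.815 to 0.910 in female gut and 0.503 to 0.715 in female liver. A group whose libraries all had 3 counts or fewer was taken as at the floor, which was the case for 18 miRNAs in ovary, 13 in brain, 11 in gut and 26 in liver. The floor corresponded to a mean of 4.91 normalised counts in ovary, 1.40 in brain, 1.04 in gut and 3.88 in liver. Reads carried no molecular identifiers, so a floor covers counting error only. Levels are relative to all known miRNAs in a library, and in a whole tissue fewer cells of a type and less RNA per cell cannot be told apart. A miRNA that is higher in ovary on this scale need not be higher as a part of all reads sequenced.

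MicroRNAs are short RNAs that guide Argonaute proteins to partly complementary messenger RNAs and reduce their translation and stability. The ovary holds germ cells, which build up the maternal RNA of the egg, together with somatic follicle cells, blood vessels and stroma. Several miRNAs are known from single tissues, such as miR-122 from hepatocytes, miR-124 from neurons and miR-202 from gonads. These markers followed the labels. The miR-122 level was 77658 to 124047 in the liver libraries and 41.6 to 109 in the brain libraries. The miR-124 level was 895 to 950.3 in brain and at most 10.7 in gut, ovary and liver. In the ovary libraries the 2 arms of miR-202 took 6.17% to 6.77% of all counts.

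A miRNA was called when an edgeR quasi-likelihood test against a log2 fold change of 1 (glmTreat) gave an adjusted p of at most 0.05 after Benjamini-Hochberg adjustment over the 238 miRNAs. Against the mean of the 3 female tissues, each tissue weighted equally on the log2 scale, 52 miRNAs were higher in ovary (21.8% of those tested) and 41 were lower (17.2%). With the size factors of DESeq2 in place of TMM the split was 46 higher and 51 lower, and with library size alone it was 89 higher and 21 lower. The median log2 fold change over all 238 miRNAs was 0.07 with TMM, -0.05 with DESeq2 size factors and 0.82 with library size alone. A difference from a mean of 3 tissues can come from 1 of them. Of the 52 higher miRNAs, 16 were called higher against all 3 tissues, 29 against 2 and 7 against 1. Of the 41 lower miRNAs, 9 were called lower against all 3 tissues, 19 against 2 and 13 against 1. The values of the ovary libraries lay above all 9 somatic libraries for 35 miRNAs (14.7%), of which 32 were among the 52. They lay below all 9 for 30 miRNAs (12.6%), of which 25 were among the 41.

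**Figure D1:**
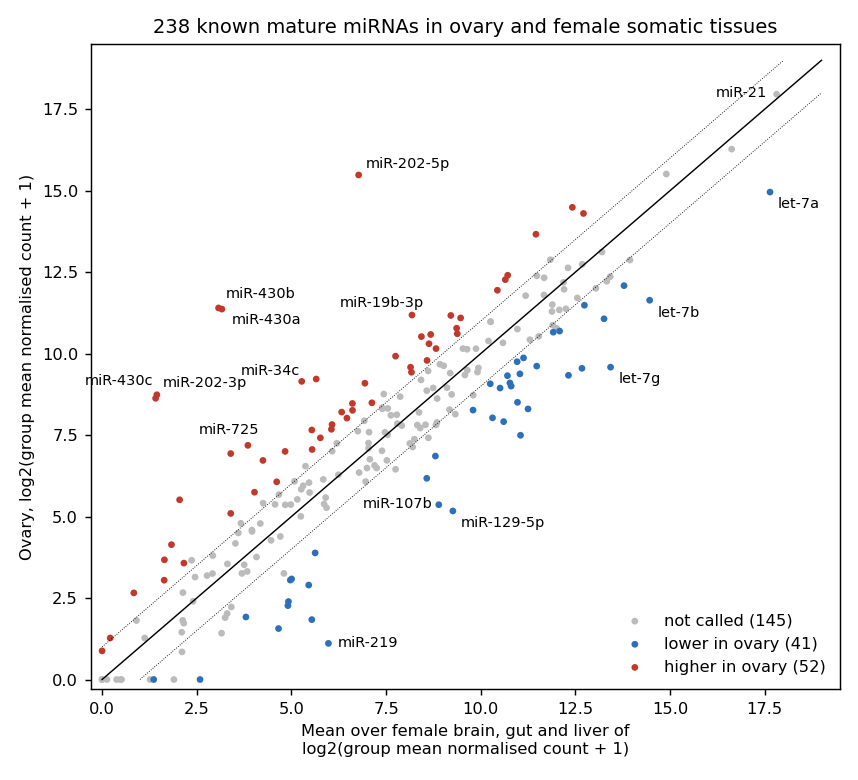
Each point is 1 of the 238 miRNAs. The vertical axis gives log2 of the mean normalised count in ovary plus 1, and the horizontal axis the mean of the same quantity over female brain, gut and liver. The solid line marks equal levels and the dotted lines a log2 difference of 1. The 52 miRNAs called higher (red) include miR-202 and miR-430 far above the line, and the 41 called lower (blue) include let-7 members at the right.

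The comparison was also made with each tissue alone. Against female brain 82 miRNAs were higher in ovary (34.5%) and 76 lower (31.9%), against female gut 52 (21.8%) and 46 (19.3%), and against female liver 58 (24.4%) and 49 (20.6%). These 3 comparisons share the ovary libraries. Across miRNAs, which are not independent replicates, Pearson's r of log2 levels between an ovary and a somatic library was 0.655 to 0.665 for brain, 0.846 to 0.859 for gut and 0.847 to 0.864 for liver, and 0.977 to 0.991 between ovary libraries.

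miRNAs higher in ovary than in each of the female tissues numbered 16 (6.72%). They were both arms of miR-202, miR-430a, miR-430b, miR-430c, miR-34c, miR-19b-3p, miR-19d, miR-126a-3p, miR-457a, miR-130b, miR-193a, miR-725, miR-203a, miR-206 and miR-726. When any 1 library was left out, 12 of the 16 were still called against each tissue, the exceptions being miR-130b, miR-193a, miR-206 and miR-726. With the DESeq2 test in place of edgeR, 11 of the 16 were called against each tissue, and miR-34c was not among them.

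miR-202, a miRNA of vertebrate gonads that is needed for normal egg production in medaka, was far higher in ovary than in each tissue. The miR-202-5p level in the ovary libraries was 44666, 47016 and 45530.4. It was 6.93, 3.85 and 5.42 in female brain, 529.9, 458 and 310.0 in female gut and 574, 319 and 526 in female liver. The ovary values lay close together and far above every somatic library. The log2 fold change was 8.80 (SE 0.25) over the mean of the tissues, with an adjusted p of 1.22e-20 (edgeR glmTreat). By single tissue the ovary mean was 8472-fold the brain mean, 106-fold the gut mean and 96.7-fold the liver mean. It was the fourth most abundant miRNA of the ovary. The other arm, miR-202-3p, had 398, 409 and 377 normalised counts in ovary. It had 0 counts in each brain library, so its ovary level was at least 282-fold higher than in brain, taking the mean floor of the brain libraries. In gut it was 3.76, 3.18 and 2.06 and in liver 5.83, 3.07 and 2.28, again with no overlap.

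The miR-430 family, which in the zebrafish embryo clears maternal messenger RNAs once zygotic transcription starts, was also far higher in ovary. The miR-430b level was 1055, 2980.4 and 4071 in the ovary libraries, 19.3, 15.5 and 16.1 in gut and 29.1, 31.5 and 31.99 in liver, with 0, 0 and 1 counts in brain. The lowest ovary library was replicate 1, which also had the fewest counts on known miRNAs, and it still lay above every somatic library. The miR-430b log2 fold change was 7.30 (SE 0.41) over gut and 6.46 (SE 0.42) over liver, with adjusted p of 8.96e-13 and 7.74e-12 (edgeR glmTreat), and the ovary level was at least 1933-fold that of brain. miR-430a had nearly the same values, with 1024, 2921 and 3964 in ovary. miR-430c was lower and more variable at 76.7, 470.3 and 729, against 1.99 to 3.30 in gut and 0 to 8.44 in liver and 0 counts in brain. Ovary replicate 1 was lowest for each of the 3, and all 3 were called over each tissue when it was left out. The family took 0.324% to 1.18% of the counts of the ovary libraries. The embryo libraries, which were not part of the comparison, had a mean of 80086 for miR-430a. The fourth member with a count, miR-430i, had 0, 1 and 1 counts in ovary and 0 in all 9 somatic libraries. It was called against the mean with an adjusted p of 0.0246, which became 0.0918 to 0.102 without ovary replicate 2 or 3 (edgeR glmTreat). Near-identical family members can share reads in the counting, so single values of miR-430, let-7 and miR-19 members are uncertain in that respect. Summed over the family, the log2 fold change against the mean was 9.05 for miR-430, -2.74 for let-7 and 2.09 for miR-19.

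miR-34b and miR-34c, neighbours in the genome within 10 kb of each other that in mammals mark ciliated cells and male germ cells, were raised as well. The miR-34c level was 604, 599 and 495 in ovary, 136, 104 and 78.9 in brain, 31.05, 29.8 and 34.3 in gut and 24.98, 12.3 and 9.14 in liver. No somatic library reached the ovary range. The log2 fold change of miR-34c was 2.43 (SE 0.59) over brain, 4.16 (SE 0.64) over gut and 5.09 (SE 0.73) over liver, with adjusted p of 0.00425, 1.81e-05 and 3.88e-06 (edgeR glmTreat). miR-34b stood at 683, 561 and 542 in ovary and 294, 245 and 216 in brain. Its log2 fold change over brain was 1.24 (SE 0.64) and did not pass the test (adjusted p = 0.233), although the ovary values lay above all 9 somatic libraries. The remaining member, miR-34a, had a different pattern, at 74.3, 66.01 and 101 in ovary and 409.9, 360.2 and 370.3 in brain, and was lower in ovary than in brain by the test (adjusted p = 7.68e-07, edgeR glmTreat). Over the mean of the tissues miR-34b and miR-34c had log2 fold changes of 3.54 (SE 0.50) and 3.89 (SE 0.44).

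Members of the miR-17-92 cluster and its paralogs, a group tied to cell proliferation in mammals, had calls in both directions. Of the 20 measured, 6 rose against the mean of the tissues (21.8% of all miRNAs did), with a median log2 fold change of 0.76 against 0.07 over all miRNAs. Against brain 13 were higher and 1 lower (34.5% and 31.9% of all miRNAs), and against gut 8 were higher (21.8%). Against liver 3 were higher and 4 lower, both below the shares over all miRNAs of 24.4% and 20.6%. Some of these calls were lost when certain single libraries were left out. That of miR-18b-3p against the mean gave an adjusted p of 0.0606 to 0.282 without liver 1, liver 3 or ovary 3, and without ovary 3 it also lost its calls over brain (0.0918) and gut (0.146). miR-17a-3p over brain gave 0.0521 to 0.107 without gut 3, ovary 2 or any 1 liver library. Gut 3 and the liver libraries are not in that contrast. Without any 1 of them the median of all miRNAs in the contrast moved from 0.24 to -0.12. Below liver, miR-18c (adjusted p = 0.0499) gave 0.0522 to 0.225 without brain 2, brain 3, gut 1, gut 2, liver 2 or any 1 ovary library, and miR-363 gave 0.104 without ovary 3 (edgeR glmTreat). The brain and gut libraries are not in the contrast with liver. The median of all miRNAs in it moved from 0.28 to 0.52 without brain 2 and stayed at 0.28 without brain 3, gut 1 or gut 2. miR-19b-3p, whose family shares a seed distinct from that of miR-17 and miR-92, was 2227, 2598 and 2149 in ovary, 124, 86.1 and 122 in brain, 359, 347 and 279 in gut and 719, 865 and 416 in liver. The ovary range did not touch the others, and the log2 fold change over the mean was 3.00 (SE 0.17) with an adjusted p of 9.58e-12 (edgeR glmTreat). The miR-25, miR-93 and miR-19d genes lie within 10 kb of one another, and all 3 were called higher. miR-25 was abundant at 19253, 19562 and 21692 in ovary, and 8951, 14041 and 9953 in liver, where it did not pass the test (log2 fold change 0.88 (SE 0.14), adjusted p = 0.803). miR-19d was 170.2, 224 and 207 in ovary and no more than 77.5 in any somatic library. By contrast miR-92a, the most abundant member, did not pass the test against the mean (log2 fold change -0.35 (SE 0.12)). It was lower in ovary than in liver, at 71182, 76863 and 89691 against 177096, 281603 and 191794, a call with an adjusted p of 0.00132 that became 0.0970 to 0.110 without ovary replicate 1 or 2 (edgeR glmTreat).

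miR-126a-3p, a miRNA of endothelial cells that zebrafish need for vascular integrity, was the second most abundant of the 16. It was 11302, 14187 and 13402 in ovary, 1156, 1266 and 1130.3 in brain, 4130.1, 4759.9 and 3833 in gut and 4467, 4914 and 3919 in liver, with no overlap. The ovary mean was 10.9-fold, 3.06-fold and 2.92-fold that of brain, gut and liver, with adjusted p of 1.68e-17, 3.04e-06 and 1.12e-05 (edgeR glmTreat). The 4 endothelial miRNAs took 2.58% to 2.89% of the ovary counts and at most 0.799% of those of any somatic library. As summed normalised counts they stood at 19181 on average in ovary, 2723 in brain, 8748 in gut and 8994 in liver, a smaller gap from gut and liver than that of the shares. Both scales are relative to the known miRNAs of a library. Levels per read sequenced were not computed. Of the 4, 2 were called higher against the mean (21.8% of all miRNAs), 4 over brain (34.5%), 2 over gut (21.8%) and 1 over liver (24.4%). The part that blood vessels in the dissected ovary have in this was not tested. miR-457a, of the miR-15 and miR-16 family, was 1568, 1416 and 1424 in ovary and 632 in the highest somatic library. The neighbouring miR-15b was also higher against the mean (log2 fold change 1.44 (SE 0.12)), whereas miR-16b and miR-15a-5p of the same family were lower, at -1.67 (SE 0.13) and -1.18 (SE 0.12). The miR-15a-5p call against the mean had an adjusted p of 0.0453, and 0.0506 to 0.250 without any 1 of the ovary or brain libraries or gut replicate 1 or 2.

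miR-725, a miRNA known from fish, was 125, 165 and 144 in ovary and between 5.96 and 24.7 in the 9 somatic libraries, a log2 fold change of 3.39 (SE 0.21) (adjusted p = 9.14e-12, edgeR glmTreat). miR-203a, a miRNA of epidermis that restrains stem cell potential in mouse skin, was 79.1, 125 and 109 in ovary and at most 36.1 elsewhere. The other 4 of the 16 lost calls when certain single libraries were left out. miR-130b was 870.1, 1039.7 and 996 in ovary and 293, 361 and 368 in brain with no overlap, but its call over brain gave an adjusted p of 0.157 to 0.158 and a log2 fold change of 1.09 without gut replicate 3 or any 1 liver library, against 0.00116 and 1.51 with all libraries. The median of all miRNAs in that contrast then moved from 0.24 to -0.12. miR-193a was 1532, 1719.6 and 1358 in ovary and 626, 736 and 555 in gut, and the adjusted p over gut of 0.0467 became 0.05003 to 0.0857 without brain 3, gut 1, gut 3, ovary 1 or ovary 2. miR-206, a skeletal muscle miRNA, had only 2, 11 and 31 counts in the ovary libraries, and miR-726 had 1, 4 and 8. For both the ovary range overlapped that of brain, and without 1 library their adjusted p over brain reached 0.298 and 0.215 at most (ovary replicate 3 left out, edgeR glmTreat). The other libraries whose removal ended these calls were gut 3 and each liver library for both, brain 2 for miR-206, and brain 1, brain 3 and ovary 2 for miR-726. Gut 3 and the liver libraries are not in the contrast with brain, and without any 1 of them its median moved as given for miR-130b. The log2 fold change over brain then went from 1.78 to 1.30 for miR-206 and from 1.70 to 1.23 for miR-726. Of the 8 muscle miRNAs, 1 was higher and 1 lower against the mean (21.8% and 17.2% of all miRNAs). Their median log2 fold change was -0.19. The lower one, miR-499, was at -2.01 (adjusted p = 0.0245, or 0.0555 to 0.0882 without brain 3 or any 1 ovary library, edgeR glmTreat).

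**Figure D2:**
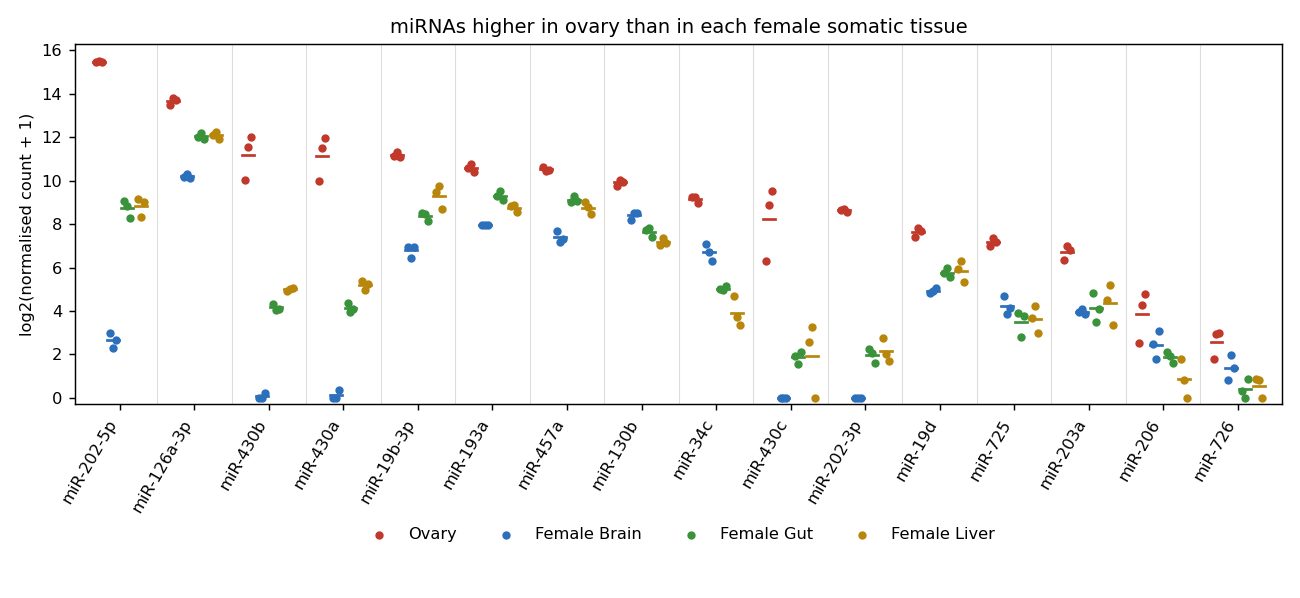
The 16 miRNAs called higher in ovary than in each female tissue, ordered by ovary level. Points are single libraries, as log2 of the normalised count plus 1, and bars are the means of the 3 plotted values. The ovary points (red) lie above all others except for miR-206 and miR-726, and for miR-430a, miR-430b and miR-430c ovary replicate 1 lies lowest.

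Other abundant miRNAs were higher against the mean but not against each tissue. miR-27c-3p, the sixth most abundant in ovary, was 21839, 24333 and 22745 there, and 12483, 13414 and 10875 in gut, where the difference did not pass the test (log2 fold change 0.91 (SE 0.14)). It was called over brain and liver, at 3.28 (SE 0.15) and 2.02 (SE 0.15). miR-204 was 4437, 5311 and 5055 in ovary against 4074, 4108 and 4109 in brain, 824, 715 and 834 in gut and 1320.5, 1616 and 887 in liver. It was called over gut and liver but not over brain. miR-135a, known from neural tissue, had the largest log2 fold change outside the miR-202 and miR-430 families among those with no overlap, 4.52 (SE 0.35), at the low level of 52.7, 37.96 and 43.4 in ovary. Its brain level was 24.7, 24.05 and 20.9, and its gut and liver libraries held at most 5 counts. The most abundant ovary miRNA, miR-21, did not pass the test, at 246579, 254672 and 263067 in ovary and 184207 to 355193 in the somatic libraries (log2 fold change 0.14 (SE 0.12)). As a share of counts it was 35.03% to 37.04% in ovary and at most 22.3% in any somatic library. The share of counts carries no TMM factor. miR-10c, of the Hox clusters, came next in ovary after miR-21 and miR-92a, at 41852, 50859 and 47288 and lay below gut, at 79901, 90228 and 79572, without a call.

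let-7, the family that rises as cells leave the stem cell state and differentiate, was lower in ovary. All 10 measured members had a lower fitted level in ovary than the mean of the tissues, and 8 of them passed the test (17.2% of all miRNAs were called lower), with a median log2 fold change of -2.58. The family took 6.80% to 7.30% of the ovary counts, 19.8% to 21.1% in brain, 20.4% to 20.96% in gut and 34.7% to 35.3% in liver, so the groups did not overlap on the share scale either. With DESeq2 size factors 10 members were called lower (51 of all 238 miRNAs were), and with library size alone 6 (21 of all 238). let-7a, its most abundant member, was 31324, 32209.8 and 31759 in ovary, 110965, 99463 and 113171 in brain, 166002, 194753 and 171809 in gut and 378796, 548560.0 and 408910.0 in liver. The ovary libraries agreed closely and the lowest somatic library stood at 99463.

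miRNAs lower in ovary than in each of the female tissues numbered 9 (3.78%), and 6 of them were let-7a, let-7b, let-7f, let-7g, let-7h and let-7j. Each of the 9 calls held when any 1 library was left out. With library size alone in place of TMM, 8 of the 9 were called, the exception being miR-150. let-7g had the largest log2 fold change of the 9 against the mean, with 611, 830.1 and 858 in ovary against 8732, 8421 and 9156 in brain, 6712, 7089 and 6441 in gut and 20019, 27933 and 20071 in liver. Its log2 fold change was -3.84 (SE 0.14) over the mean, with an adjusted p of 1.07e-17 (edgeR glmTreat). let-7b was 2965, 3249 and 3336 in ovary and 7.52-fold, 5.55-fold and 8.53-fold higher in brain, gut and liver. The remaining members were less uniform. let-7i was lower than brain, at 822, 705 and 824 against 24509.7, 21360.0 and 23078, and within 1 log2 unit of gut and liver. let-7c and let-7d were called against brain but not against gut or liver, and let-7e against liver but not brain or gut. The let-7d call against the mean (adjusted p = 0.0101) became 0.0874 to 0.105 without ovary replicate 1 or 2 (edgeR glmTreat).

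miR-107b, miR-216b and miR-150 were the other 3. miR-107b, whose relatives lie in introns of pantothenate kinase genes in mammals, was 35.96, 42.9 and 41.6 in ovary, 830.5, 901 and 804 in brain, 210.0, 222 and 191 in gut and 497, 777 and 546 in liver. It was 21.05-fold higher in brain, 5.17-fold higher in gut and 15.1-fold higher in liver, with an adjusted p against the mean of 4.54e-14 (edgeR glmTreat). The related miR-107a and miR-103 were also lower against the mean, at -1.57 (SE 0.13) and -1.66 (SE 0.12). Summed over miR-107a and miR-107b, the log2 fold change against the mean was -2.03. miR-216b, known from the exocrine pancreas together with its neighbour miR-217, was 199, 284 and 237 in ovary and 1010.0 to 2650.1 in the somatic libraries. miR-217 was lower than gut and liver, at log2 fold changes of -3.93 (SE 0.23) and -2.82 (SE 0.23), but not than brain (-0.40 (SE 0.22)). The other neighbour, miR-216a, was higher than brain at 1.47 (SE 0.28) (adjusted p = 0.0219, or 0.0957 to 0.307 without brain 3, gut 3, ovary 3 or any 1 liver library, edgeR glmTreat) and was not called against gut or liver. Over the 6 pancreatic miRNAs, 2 were higher and 3 lower than brain (34.5% and 31.9% of all miRNAs), 1 higher and 3 lower than gut (21.8% and 19.3%), and 2 higher and 2 lower than liver (24.4% and 20.6%). The miR-375 call over brain gave 0.0501 to 0.0506 without gut 3, liver 1 or liver 2. Gut 3 and the liver libraries are not in the contrast with brain. The median of all miRNAs in it moved from 0.24 to -0.12 without any 1 of them. miR-150, a lymphocyte miRNA in mammals, was 412, 569 and 554 in ovary and at least 1252 in every somatic library.

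**Figure D3:**
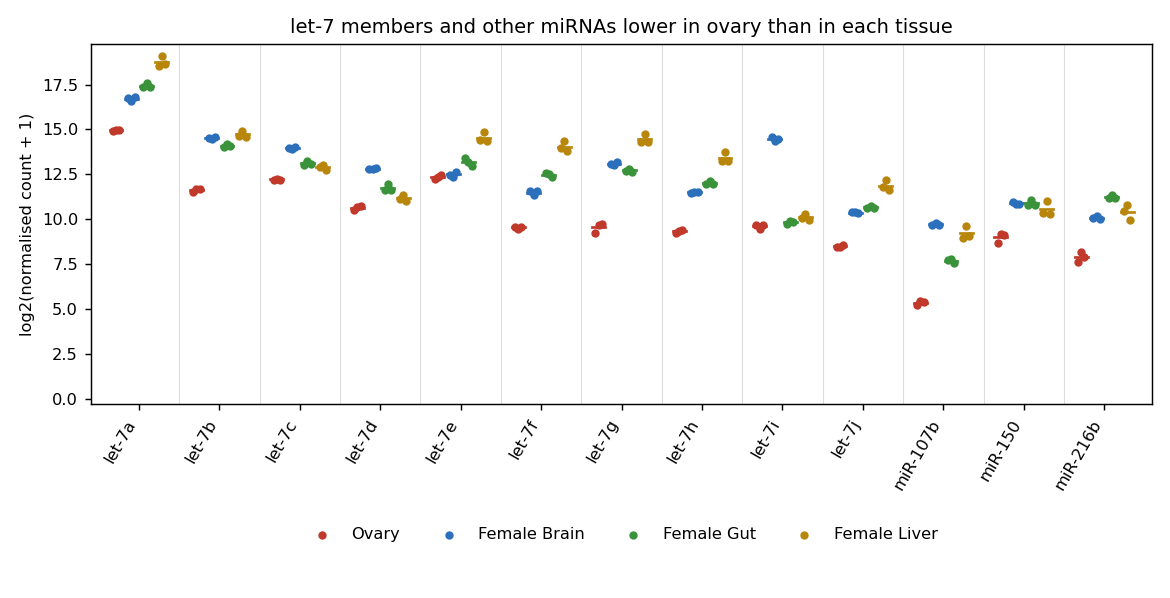
The 10 let-7 members with miR-107b, miR-150 and miR-216b. Points are single libraries, as log2 of the normalised count plus 1, and bars are means of the 3 plotted values. The ovary points (red) lie below all somatic points for 9 of the 10 let-7 members, the exception being let-7e.

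Many lower calls came from brain. Of the 16 neural miRNAs, 15 were lower in ovary than in brain (31.9% of all miRNAs were), with a median log2 fold change of -6.01, and they took 0.469% to 0.502% of ovary counts against 25.1% to 28.1% in brain. Against gut 1 was higher and 2 lower (21.8% and 19.3% of all miRNAs), and against liver 5 were higher and 2 lower (24.4% and 20.6%). Of the calls against liver, that of miR-132-3p gave an adjusted p of 0.0764 to 0.115 without liver 1, ovary 1 or ovary 3, that of miR-132-5p 0.0557 to 0.109 without liver 1, ovary 2 or ovary 3, and that of miR-153a 0.188 without liver 2 (edgeR glmTreat). miR-129-5p was 23.97, 41.3 and 39.9 in ovary, 14394, 14446 and 14470.3 in brain, 208, 268 and 239 in gut and 66.6, 68.3 and 63.98 in liver, a log2 fold change of -4.07 (SE 0.21) over the mean with no overlap. miR-132-3p and miR-212, whose genes lie within 10 kb of each other and which respond to neuronal activity in mammals, were lower too, at 153, 216 and 168 and 0, 1.65 and 6.07 in ovary against 37064, 37099 and 34535 and 451, 555 and 415 in brain. miR-9-5p, of neural progenitors, stood above gut and liver in ovary. It was 1632, 1814 and 1729 in ovary, 129039 on average in brain, 311, 450.2 and 445 in gut and 172, 116 and 174 in liver, and was called higher than gut and liver. miR-219, of oligodendrocytes, had 0, 0 and 4 counts in ovary and 1289.7, 977 and 1459.6 normalised counts in brain. miR-124, of neurons, had 0, 3 and 9 counts in ovary, and its log2 fold change of -2.39 over the mean became 0.11 when brain was left out of it.

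All 5 intestinal miRNAs were higher in ovary than in brain (34.5% of all miRNAs were), and all 5 were lower than in gut (19.3%) and than in liver (20.6%). miR-194a, a miRNA of intestinal epithelium whose gene lies next to that of miR-192, was 3262, 3911 and 5859 in ovary, 163, 197 and 127 in brain, 163834, 184814 and 158952 in gut and 95325, 116829 and 93458 in liver. Its call against the mean (log2 fold change -1.69 (SE 0.37), adjusted p = 0.0208) became 0.0516 to 0.111 without brain replicate 2 or ovary replicate 1 or 2, and without gut in the mean the log2 fold change was 0.10. The median log2 fold change of the 5 was -0.56 over the mean with TMM, -0.71 with DESeq2 size factors and 0.20 with library size alone. miR-122 was 1707, 2091 and 1462 in ovary and 60.2-fold higher in liver. miR-722 and miR-458, known from fish, were also lower than gut and liver but not brain. miR-458 was 2057, 2310.4 and 2069 in ovary, 2532, 3504 and 3209.9 in brain, 12738, 12914 and 11354 in gut and 20389, 28757 and 24778 in liver. Epithelial miRNAs of the miR-200 family were lower than gut for 6 of 6 (19.3% of all miRNAs), with a median log2 fold change of -2.80. Over brain 3 of the 6 were higher (34.5% of all miRNAs) with a median of 1.53, and against liver the median was -0.90 and the 6 did not pass the test. Of those over brain, miR-200a gave an adjusted p of 0.0950 to 0.107 without brain 3, gut 3 or any 1 liver library, and miR-429a 0.0528 to 0.205 without brain 2, brain 3, gut 3, ovary 2, ovary 3 or any 1 liver library (edgeR glmTreat). The 4 measured members of the Hox miR-196 family were all called higher than brain (34.5% of all miRNAs) and lower than gut (19.3%). Against liver 1 was higher (24.4%) and 0 lower. The miR-196c call over brain gave an adjusted p of 0.0706 to 0.184 without brain 2, gut 3, ovary 1, ovary 3 or any 1 liver library (edgeR glmTreat). Gut 3 and the liver libraries are not in the contrast with brain. The median of all miRNAs in it moved from 0.24 to -0.12 without any 1 of them.

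Calls in opposite directions were thus common between brain and the other 2 tissues. For 32 miRNAs the ovary was higher than one and lower than the other of brain and gut, for 32 of brain and liver, and for 1 of gut and liver. Among the 52 higher against the mean, 4 were called the other way against a single tissue. miR-724, miR-734 and miR-135c were lower than brain, and miR-196b was lower than gut. miR-734 was 134, 142 and 121 in ovary, 1676, 2339.6 and 2076 in brain, 5.64 to 6.75 in gut and 3.84 to 9.14 in liver. miR-724 was 1558, 1814 and 1897 in ovary, 10641, 11430.2 and 13089.5 in brain, 167 to 235 in gut and 88.2 to 158 in liver. For both the ovary lay between brain and the digestive tissues. The miR-724 call against the mean (adjusted p = 0.0437) became 0.0569 to 0.229 without brain 1, gut 3, liver 2, liver 3 or ovary 3, and that of miR-196b (0.0286) became 0.0663 to 0.131 without brain 3, gut 3, liver 2, liver 3 or ovary 3 (edgeR glmTreat). With an arithmetic mean of the 3 tissue means in place of the mean of log2 values, the sign of all 4 turned, for example to -2.36 for miR-734 at a pseudocount of 1.

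**Figure D4:**
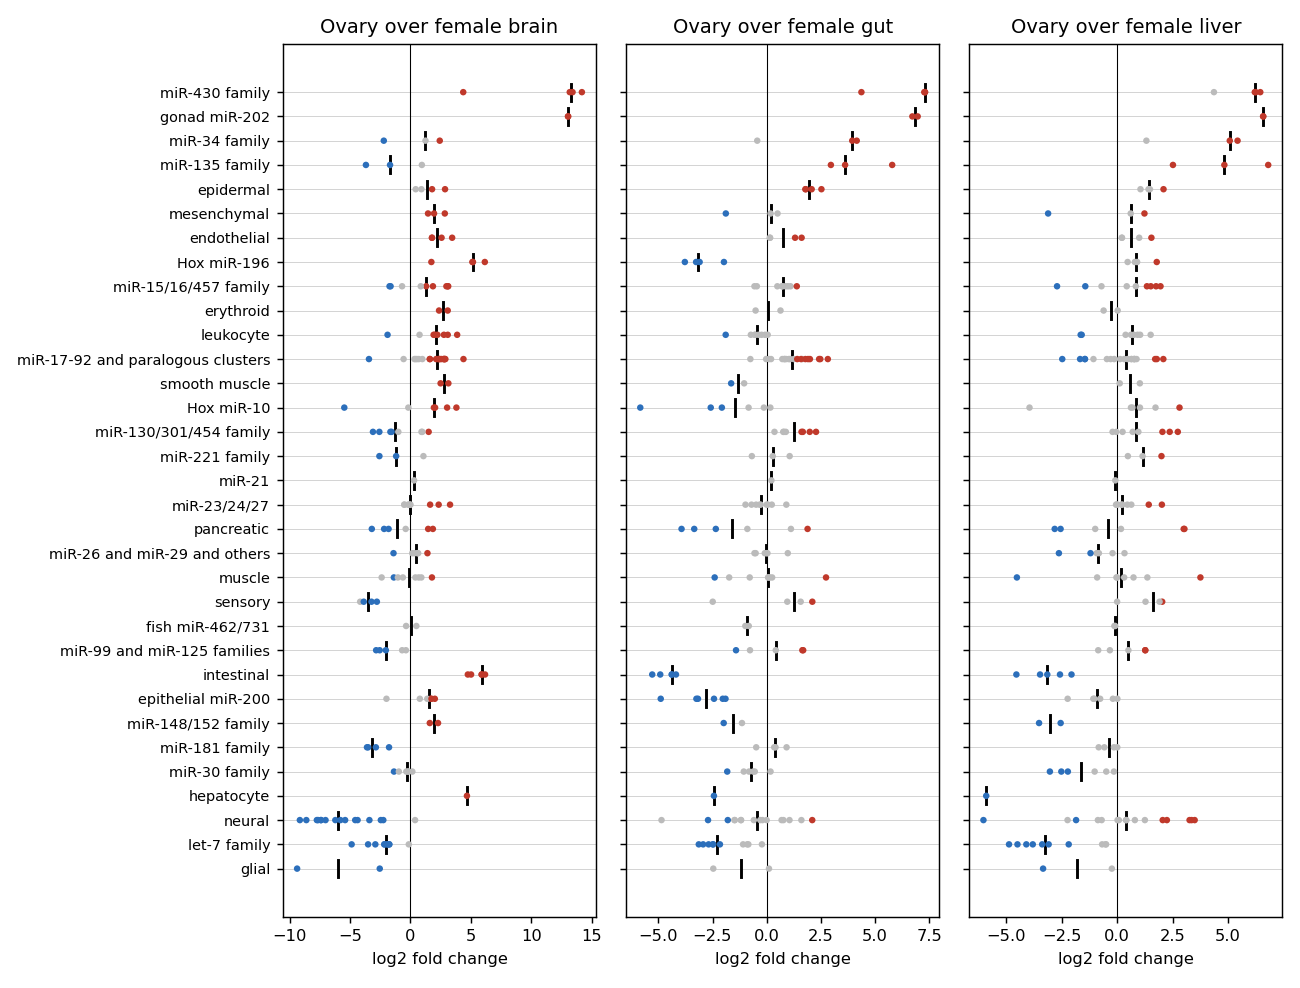
Each point is a miRNA of the list named on the left, placed at its log2 fold change of ovary over female brain, gut or liver. Red points were called higher in ovary, blue lower and grey not called, and black ticks are list medians. The neural list lies left in the brain panel, the intestinal list right in the brain panel and left in the other two, and the let-7 list left in all 3.

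The miRNAs that were highest in ovary could be followed in gut and liver of both sexes, as values without a test. In female gut miR-202-5p stood at 0.946% of the ovary mean and miR-430a, miR-430b and miR-430c at 0.639%, 0.628% and 0.635%. In female liver the same 4 stood at 1.03%, 1.36%, 1.14% and 1.05%. The miR-430c value in liver rests on few reads, with 6, 11 and 0 counts or 1.17%, 1.98% and 0% of the ovary mean in the 3 libraries. In males, miR-202-5p was 0.716% of the ovary mean in gut and 1.78% in liver, while miR-430a, miR-430b and miR-430c were at the floor in male gut and male liver. The miR-430a counts were 84, 37 and 39 in the female gut libraries and 2, 0 and 0 in the male gut libraries. miR-34c and miR-34b stood higher in female gut, at 5.60% and 6.49% of the ovary mean, and at 0.211% and 1.23% in male gut. The source of these reads was not tested.

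**Figure D5:**
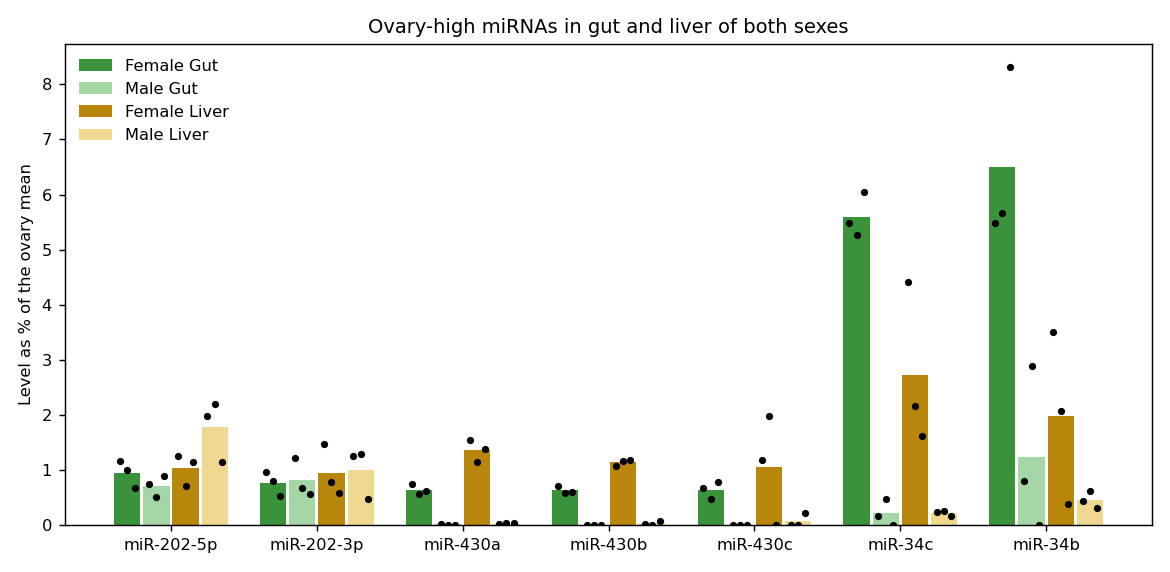
Mean level of 7 ovary-high miRNAs in gut and liver as a percent of the ovary mean, with single libraries as points and bars starting at 0. In the female tissues the miR-202 and miR-430 bars lie near 1%, with the miR-430c points in liver spread from 0% to 1.98%, and in the male tissues the miR-430a, miR-430b and miR-430c bars are at or near 0.

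Calls at very low counts rested on few reads. miR-2192 had 0, 1 and 3 counts in the ovary libraries and was called against the mean with an adjusted p of 0.0152, or 0.211 without ovary replicate 3 (edgeR glmTreat). miR-132-5p and miR-10d-3p had 0 counts in all 3 ovary libraries. miR-132-5p was 25.4, 31.7 and 23.6 in brain, which is at least 5.48-fold higher given the mean ovary floor, and miR-10d-3p did not exceed that floor in any group. The miR-10d-3p call against the mean had a log2 fold change of -5.09 and an adjusted p of 0.0495 (edgeR glmTreat). That adjusted p became 0.0523 to 0.211 without gut 1, gut 2, liver 1 or any 1 brain or ovary library. In all, 11 of the 52 higher and 3 of the 41 lower miRNAs had at least 1 of the 4 groups at the floor, and a fitted log2 fold change against such a group is not a bound.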

How the data were processed

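Small RNA libraries of zebrafish tissues were analysed. The authors' processing notes name CASAVA 1.8.2, cutadapt and edgeR. The authors trimmed adapters, mapped reads to 247 mature miRNAs of miRBase release 19 with the quantifier of miRDeep2 and deposited the read counts without normalization. They also deposited the same table as a TMM normalised signal, which equals the counts times 1 factor per library. Levels in the text are values of that deposited signal. The study mapped its reads to the Zv9 genome. No coordinates of that build are used here.

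The deposited counts of 32 libraries in 11 groups (3 per group, 2 for heart, whose replicate 3 was not analysed here) were fitted with edgeR 4.0.16 in R 4.3.3, with TMM factors and 1 coefficient per group. The contrast was ovary minus the equally weighted mean of female brain, gut and liver, beside each tissue alone. The glmTreat threshold was 1 on the log2 scale, and Benjamini-Hochberg adjustment ran over all 238 miRNAs that had a count. Standard errors come from the F statistic of no change. A group of which every library had 3 counts or fewer was at the floor, and a fold against it is a lower bound computed from the mean floor. Total counts on known miRNAs ranged from 277699 to 6894023 over the 12 libraries compared.

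The members and the miRNA lists were chosen with earlier results of these data known. miRNAs were named by a rule. It takes the 10 most abundant in ovary and 5 in each tissue, the 10 largest changes in each direction with no overlap, every miRNA called against each tissue, and members of the lists, of which more were named than the largest 4. let-7c, let-7d, let-7i, miR-103, miR-107a, miR-10d-3p, miR-124, miR-132-5p, miR-15b, miR-204, miR-2192, miR-223, miR-458, miR-722, miR-724, miR-734 and miR-93 were named after their values were seen. Gene neighbours within 10 kb come from RefSeq (GRCz12tu), in which 225 of the 238 miRNAs matched. The fit was tested on simulated counts for 237 miRNAs with 40 changed 6-fold, and recovered 40 with 0 false calls for ovary against the mean. The simulation gave all groups but ovary equal levels and a fixed spread, and changed no miRNAs of low level. It therefore cannot speak to calls at low counts or to tissues that differ from each other. Alternatives were other scalings, tests, filters, sample sets, thresholds and means, and leaving out each library. Seed families were not analysed because no mature sequences were used here, and families were summed by name instead.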

Additional observations from a re-analysis of the deposited data

How the results depend on the processing

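With library size alone in place of TMM, 89 miRNAs were higher and 21 lower against the mean of the tissues (52 and 21 shared with those called with TMM), 82 were higher against gut, 120 higher and 24 lower against liver, and 35 higher than each tissue. This setting leaves out the TMM factors, which were 1.34 to 1.50 in ovary and 0.503 to 1.06 in the somatic libraries. The median of all miRNAs then moves to 0.82. Why the factors differ between tissues was not tested. The DESeq2 test gave 39 higher and 40 lower, and an adjusted p of 0.01 and the other settings kept every count within 1.5 times. Leaving out 1 library gave 43 to 56 higher and 31 to 52 lower against the mean, 65 to 85 and 75 to 83 against brain, 48 to 53 and 43 to 46 against gut, 48 to 68 and 37 to 50 against liver, 12 to 17 higher than each tissue and 9 to 10 lower than each. The TMM factors were computed anew each time. Without gut 3 or any 1 liver library, which are not in the contrast with brain, the median of that contrast moved from 0.24 to -0.12. With brain, gut or liver left out of the mean, 36, 47 and 45 of the 52 higher and 24, 37 and 35 of the 41 lower miRNAs were shared. Signs turned for 7 named miRNAs. With brain left out of the mean the log2 fold change was 0.11 for miR-124, 0.38 for miR-128 and -0.0922 for miR-196b, and with gut left out it was 0.10 for miR-194a. An arithmetic mean of the tissues with pseudocounts of 1 and 10 moved 76 and 79 of 100 named log2 fold changes by more than 1 SD of the ovary libraries, with median shifts of -0.43 and -0.38, so the fold changes over the mean depend on this choice. The log2 fold change was then -0.16 and -0.15 for miR-135c, -0.53 and -0.48 for miR-196b, -1.19 and -1.19 for miR-724 and -2.36 and -2.28 for miR-734. The adjusted p of 0.01 was a stricter threshold on the main fit, and the others of the 22 alternatives were refits. Under all 22, 11 of the 16 miRNAs higher than each tissue and 8 of the 9 lower than each were called. Against the mean 39 of the 52 and 21 of the 41 were called in all of them. Counting the means without 1 tissue as well, 26 of the 52 and 15 of the 41 were called in all 25.

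The values showed no pairing of the libraries by replicate number. This cannot tell whether same-numbered tissues came from the same fishes. Deviations of same-numbered libraries correlated above 0.1 in 3 of 18 pairs, from -0.22 to 0.15, and the best partner had the same number for 3 of the 12 libraries. With the replicate number as a block the counts against the mean were 52 higher and 40 lower, and 47 and 42 in the 12 libraries alone. The low total counts on known miRNAs in the ovary libraries limit low miRNAs most, since a count of 3 was 2.60 to 7.19 normalised counts there. The seed family test was not run.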

Other observations

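Other cell type miRNAs differed by tissue. Of the 8 leukocyte miRNAs, 6 were higher and 1 lower in ovary than in brain (34.5% and 31.9% of all miRNAs), 1 was lower than gut (19.3%) and 2 were lower than liver (20.6%), and the others did not pass the test against gut or liver. The miR-146a call below liver gave an adjusted p of 0.0959 to 0.110 without ovary replicate 1 or 2 (edgeR glmTreat). Their summed normalised counts were 3145 to 3591 in ovary, 2741 to 2764 in brain, 5207 to 6196 in gut and 4195 to 5608 in liver. As a share of counts, ovary at 0.472% to 0.486% overlapped gut at 0.474% to 0.562% and lay above liver at 0.282% to 0.386%, so the order of ovary and liver depends on the scale. miR-223, of neutrophils and monocytes, was 192, 188 and 232 in ovary, 191, 218 and 186 in gut and 13.9, 12.5 and 15.1 in brain. The erythroid pair miR-144 and miR-451 had summed normalised counts of 4912 to 5977 in ovary, 626 to 680.3 in brain, 6134 to 8407 in gut and 6693 to 9592 in liver, so ovary lay below gut and liver. As a share of counts the pair took 0.722% to 0.803% in ovary, 0.558% to 0.719% in gut and 0.462% to 0.568% in liver, so ovary lay above them on that scale. Both miRNAs were called over brain (34.5% of all miRNAs were) and did not pass the test against gut or liver.

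Testis values, which entered the fit but not these comparisons, stood beside those of ovary as follows. miR-202-5p was 51578 ± 5595 (SD, n = 3) in testis, and 45738 ± 1188 (SD, n = 3) in ovary. miR-430b was 4.44 ± 0.829 (SD, n = 3) in testis, miR-34c 13.7 ± 4.07 (SD, n = 3) and miR-19b-3p 352 ± 27.4 (SD, n = 3), all below every ovary library. miR-725 was 77.2 ± 18.3 (SD, n = 3) in testis, also below every ovary library. Outside the gonads its mean was 59.2 in male liver and 1064 in embryo, the latter above ovary. The let-7 family took 17.7% to 17.9% of the testis counts, above the 6.80% to 7.30% of ovary.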
